A study of Mus musculus with 6 samples.

Results

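Fibroblast growth factors (FGF) and the epidermal growth factor (EGF) family are secreted signals that are read by receptor tyrosine kinases, the FGF receptors and the ErbB receptors. Both kinds of receptor drive the Ras, Raf, MEK and ERK kinase cascade. The Sprouty (Spry) and Spred proteins and the phosphatases Dusp4 and Dusp6 act on that cascade as feedback inhibitors, and several of them are themselves made in response to ERK. Fibroblasts are known both as a source of FGF ligands for neighbouring epithelia and as cells that respond to EGF and FGF. The members described here were taken by name. They are all genes on the array called Fgf or Fgfr with a number, Fgfrl1, Spry1 to Spry4, Spred1 to Spred3, Dusp4, Dusp6, the EGF ligands and their 4 receptors. This gave 47 genes with 79 probes, out of 50090 gene names with 61307 probes. By role there were 22 FGF ligands, 5 FGF receptors, 9 feedback inhibitors, 7 EGF ligands and 4 ErbB receptors.

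The study asked which transcripts differ in mouse NIH3T3 fibroblasts that overexpress SIRT7, a nucleolar deacetylase of the sirtuin family. All cells carried a retroviral vector and had been through drug selection, the GFP group with GFP alone and the others with SIRT7 fused to GFP. LT7 denotes the long SIRT7 cells and ST7 the small SIRT7 cells, which were picked from confluent SIRT7 cultures and then cloned, so each is a clonal line and the clone cannot be told apart from SIRT7. Each group had 2 arrays of RNA from different passages of its line, so p-values measure only the spread between these arrays. The medium was the same for every group, DMEM plus 10% serum at 5% CO2.

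Signals are given in scanner units after background subtraction, and a probe counts as measured where the scanner software marked it as well above background. The arrays labelled ST7 were dim. Their 75th percentile of signal was 16.3 and 17.1, against 317 to 384 on the other 4 arrays, and 25.5% to 26.4% of the probes were measured, against 47.4% to 57.5%. Scaling to the 75th percentile raised the ST7 arrays by 4.36 to 4.44 on the log2 scale relative to GFP, so the sign of many changes in ST7 depended on the scaling. LT7 replicate 1 alone was read in a second scan, and its spike-in RNAs were 4.28 brighter on the log2 scale than the mean of the other 5 arrays. The brighter of the 2 probes for Sirt7 read 3125 and 2480 in GFP cells, 3633 and 2782 in LT7 cells and 2.85 and 3.28 on the arrays labelled ST7. Sirt7 was therefore not measured on the arrays labelled ST7. In LT7 its log2 change was 0.29 ± 0.21 (SE, limma adjusted p = 0.471). Neither label of overexpression is borne out by these probes, and whether they match the introduced sequence is not given in the sources used here. The paper reported the fusion protein in both lines by immunoblot, without a significant difference, and by fluorescence in nucleoli. These are protein measures, which the probes do not give. Whether the arrays labelled ST7 hold the cells their label names, and whether their RNA was intact, was not tested, and ST7 below stands for the arrays so labelled. Of 15 fibroblast markers, 15 were measured on both arrays in GFP and in LT7 and 4 in ST7. Among those 4, vimentin (Vim) read 14612 and 16192 on the arrays labelled ST7. The 15 fibroblast markers summed to 473633 and 452026 in GFP and to 15084 and 16622 in ST7, where most of the sum was Vim. Of 15 epithelial markers, GFP had 5 measured, LT7 3 and ST7 6. The defining marker Cdh1 was at background on all 6 arrays, and Epcam read 86.7 and 94.0 in ST7. The brightest epithelial marker on the arrays labelled ST7 was Krt18, with 1881 and 1755, where GFP cells had 6.64 and 4.64. It made up most of the epithelial sum in ST7, which was 2282 and 2132, while that of GFP was 554 and 475. From neither GFP array to both ST7 arrays went 3 epithelial markers, and 1 went the other way. Over the 50090 genes of the array, 578 went the first way and 12860 the other. The part of other cell types in the results was not tested. Of 5 immune markers, 3 were measured on both arrays in GFP, 3 in LT7 and 1 in ST7. Of 5 adipocyte markers, 2 were so measured in GFP, 2 in LT7 and 0 in ST7. No endothelial marker was measured in any group.

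The probes that the results turn on are printed first, because for Erbb4, Erbb3 and Fgf2 the probes of 1 gene gave different answers. All are 60 bases long and are given 5′ to 3′ as in the array design. The first set holds the 4 probes named Erbb4, in the order of their mean signal. Capitals mark the longest run that the first probe shares with another of the set, which is 22 bases.
Erbb4 probe 1: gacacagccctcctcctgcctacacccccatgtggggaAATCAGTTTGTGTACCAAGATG
Erbb4 probe 2: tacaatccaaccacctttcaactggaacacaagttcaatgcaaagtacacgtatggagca
Erbb4 probe 3: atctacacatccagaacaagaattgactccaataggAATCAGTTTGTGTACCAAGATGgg
Erbb4 probe 4: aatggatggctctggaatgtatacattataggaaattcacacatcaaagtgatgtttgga
The next set shows how alike the ErbB receptors are where their probes cover the same stretch. Capitals mark the 33 bases, of 56 compared, that are the same in the 3 probes when they are laid side by side without gaps.
Erbb2 probe 2: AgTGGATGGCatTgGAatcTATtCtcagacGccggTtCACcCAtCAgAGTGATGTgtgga
Erbb3 probe 3: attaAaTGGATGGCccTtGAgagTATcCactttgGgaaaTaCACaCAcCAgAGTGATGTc
Erbb4 probe 4: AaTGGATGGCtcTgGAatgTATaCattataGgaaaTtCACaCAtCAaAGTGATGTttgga
The last set holds the Erbb3 probe that was measured on both arrays labelled ST7, the 2 probes of Fgf2 and the single probe of Fgf7, a ligand whose signal was lost on those arrays. No base is capitalised in it.
Erbb3 probe 2: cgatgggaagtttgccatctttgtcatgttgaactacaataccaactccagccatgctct
Fgf2 probe 1: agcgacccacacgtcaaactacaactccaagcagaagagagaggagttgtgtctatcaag
Fgf2 probe 2: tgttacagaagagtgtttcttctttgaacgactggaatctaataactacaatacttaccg
Fgf7 probe 1: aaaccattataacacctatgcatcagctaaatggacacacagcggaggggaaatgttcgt

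In GFP cells 29 of the 47 members were measured on both arrays, with each gene taken through its brightest probe. LT7 had 22 and ST7 13. Over all genes the shares were 50.4%, 42.2% and 23.0%. All 5 FGF receptors and all 4 ErbB receptors were measured in GFP, as were 8 of 9 feedback inhibitors, while only 8 of 22 FGF ligands and 4 of 7 EGF ligands were. Erbb3 and Erbb4 were measured in GFP at 1 probe each, designed on a predicted transcript, and at none of their other probes. In ST7 the counts were 3 of 5 FGF receptors, 2 of 4 ErbB receptors, 3 of 9 feedback inhibitors, 5 of 22 FGF ligands and 0 of 7 EGF ligands. Erbb4 is 1 of those 2 ErbB receptors, through the same single probe. Of the 29 members measured in GFP, 16 were measured on neither array labelled ST7, which is 55.2%. The same share over all genes was 50.9%. Fgf9 alone went the other way, from neither array in GFP to both in ST7. There were 12 members measured on no array, namely Fgf4, Fgf5, Fgf6, Fgf12, Fgf13, Fgf15, Fgf16, Fgf17, Fgf20, Fgf22, Areg and Tgfa.

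**Figure D1:**
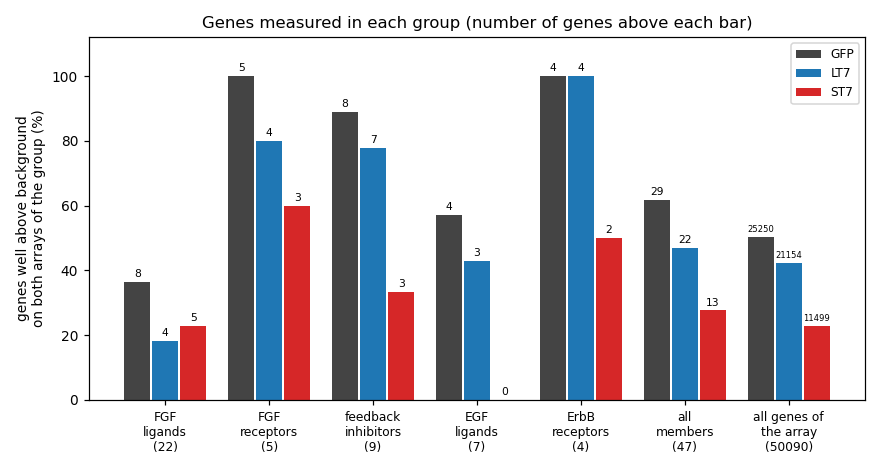
Share of genes measured on both arrays of 1 group (vertical axis, %), by role of the member and for all genes of the array, with the number of genes above each bar and the size of each list in parentheses under it. EGF ligands fell from 4 genes in GFP to 0 in ST7, and all members from 29 to 13. Each gene counts through its brightest probe, which for Erbb3 and Erbb4 was the only one measured in GFP.

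**Figure D2:**
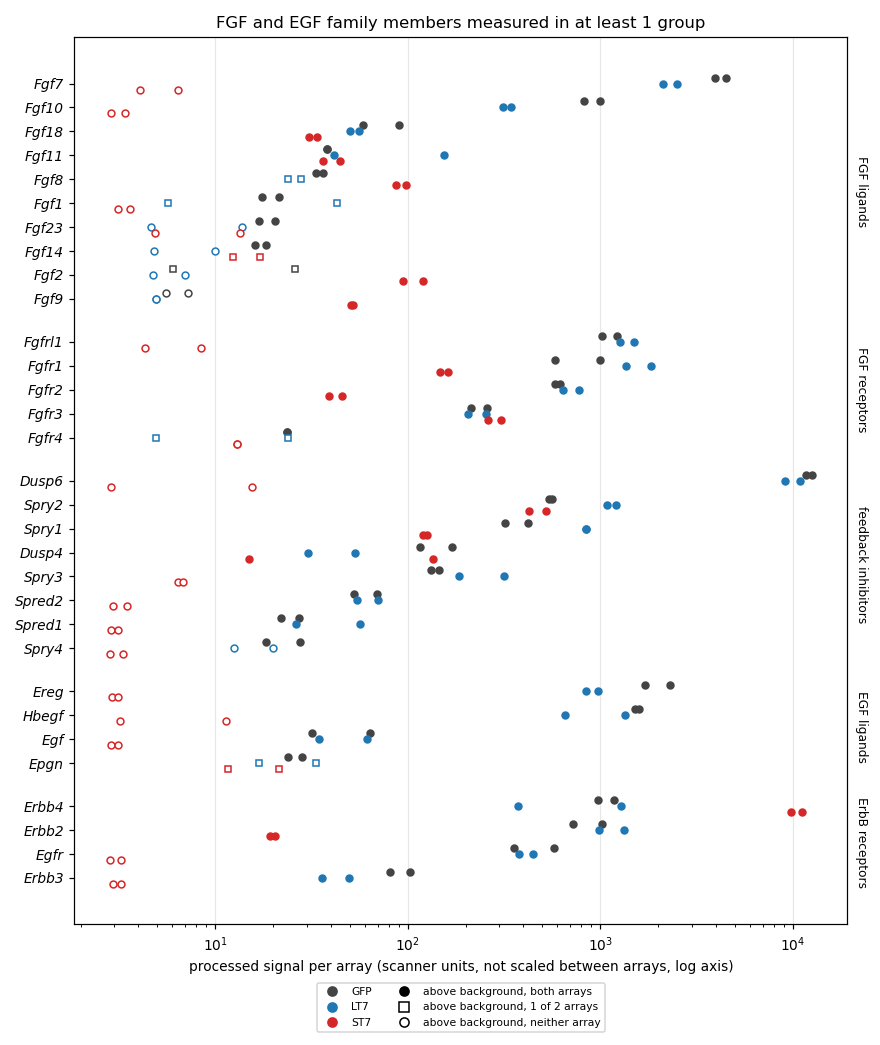
Processed signal on each of the 6 arrays (horizontal axis, scanner units, log scale, not scaled between arrays) for the 31 members measured on both arrays of at least 1 group, grouped by role. Filled circles mark members measured on both arrays of the group, open squares on 1 and open circles on neither. Dusp6, Fgf7 and Ereg lie above 1700 in GFP and below 16 on the arrays labelled ST7, while Erbb4 lies higher there than in GFP and LT7.

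The FGF ligands Fgf7 and Fgf10 are paracrine ligands that mesenchymal cells are known to make for epithelia, and both were measured in GFP and LT7 only. Fgf7 read 3966 and 4489 in GFP cells, 2134 and 2508 in LT7 cells and 6.42 and 4.08 on the arrays labelled ST7. Fgf10 read 997 and 830.2 in GFP cells, 345 and 314 in LT7 cells and 2.89 and 3.42 on the arrays labelled ST7. The 3 groups did not overlap for either ligand, with GFP highest and ST7 not above background. The share of all genes with this order was not counted, and 50.9% of all genes measured in GFP were measured on neither ST7 array.

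Fgf18, a ligand with known roles in the skeleton, read 90.8 and 58.7 in GFP cells, 56.0 and 50.4 in LT7 cells and 33.9 and 30.6 in ST7 cells. Fgf11, which belongs to the intracellular FGF subfamily that is not secreted, read 38.3 and 38.1 in GFP cells, 41.7 and 154 in LT7 cells and 44.7 and 36.5 in ST7 cells. Its LT7 arrays differed from each other far more than the groups did. Fgf8, a ligand of early embryos and limb buds, read 33.6 and 36.3 in GFP cells, 27.8 and 23.9 in LT7 cells with 1 array measured and 87.5 and 98.1 in ST7 cells.

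Of the 22 FGF ligands, Fgf2 and Fgf9 were measured on both arrays in ST7 only. Fgf2, a ligand that leaves cells without a classical signal peptide, read 25.9 and 6.02 in GFP with 1 array measured, 4.78 and 7.01 in LT7 cells and 94.6 and 119.8 in ST7 cells. This is its first probe, printed above, while the second read 2.93 to 10.4 on all 6 arrays and was never measured. Fgf9, a ligand secreted by epithelial and mesothelial cells, read 7.25 and 5.55 in GFP cells, 4.92 and 4.94 in LT7 cells and 51.1 and 51.8 in ST7 cells.

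Fgf1, Fgf14 and Fgf23 were close to the detection limit. Fgf1, a ligand that can bind every FGF receptor, read 17.5 and 21.5 in GFP cells, 42.8 and 5.72 in LT7 cells with 1 array measured and 3.14 and 3.61 in ST7 cells. Fgf14, an intracellular FGF, read 18.3 and 16.1 in GFP cells, 4.79 and 9.96 in LT7 cells and 12.3 and 17.1 in ST7 cells with 1 array measured. Fgf23, a hormone of phosphate balance, read 20.5 and 17.0 in GFP and was measured on neither array elsewhere. Fgf3 and Fgf21 were measured on 1 GFP array each and on no other.

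The FGF receptors Fgfrl1, Fgfr1 and Fgfr2 shared an order of the groups on the deposited signals, which are not scaled between arrays. Fgfrl1, a receptor without a kinase domain, read 1223 and 1029.8 in GFP cells, 1494 and 1274 in LT7 cells and 8.48 and 4.30 on the arrays labelled ST7. Fgfr1, the main FGF receptor of mesenchymal cells, read 998 and 581 in GFP cells, 1833 and 1368 in LT7 cells and 163 and 147 in ST7 cells. Fgfr2, whose splice forms bind different ligands, read 617 and 586 in GFP cells, 774 and 645 in LT7 cells and 45.6 and 38.9 in ST7 cells. LT7 lay above GFP on both arrays for each of these 3 receptors, and ST7 lay below both groups.

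Fgfr3 behaved differently by probe. Its first probe read 213 and 258 in GFP cells, 255 and 206 in LT7 cells and 307 and 261 in ST7 cells. Its second probe, which overlaps the first by 37 bases of which 36 are the same, read 254 and 243 in GFP cells, 256 and 226 in LT7 cells and 11.3 and 7.56 in ST7 cells. The third probe was at background on all arrays. The first 2 probes thus parted only on the arrays labelled ST7, where the second was not measured. Fgfr4 read 23.6 and 23.7 in GFP cells, 4.96 and 23.9 in LT7 cells with 1 array measured and 12.9 and 13.0 in ST7 cells with neither.

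Dusp6, a phosphatase that removes phosphate from ERK, read 11802 and 12657 in GFP cells, 9139.7 and 10918 in LT7 cells and 2.89 and 15.6 on the arrays labelled ST7, where it was not measured. The related Dusp4 read 116 and 169.7 in GFP cells, 30.5 and 53.2 in LT7 cells and 15.0 and 136 in ST7 cells. Its ST7 replicates lay on either side of the LT7 values.

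The Sprouty genes split in LT7. Spry1 read 424 and 321 in GFP cells, 846 and 849 in LT7 cells and 126 and 121 in ST7 cells. Spry2 read 545 and 561 in GFP cells, 1217 and 1082 in LT7 cells and 429 and 526 in ST7 cells at its first probe. Spry3 read 132 and 145 in GFP cells, 317 and 184 in LT7 cells and 6.45 and 6.85 in ST7 cells. LT7 thus lay above GFP on both arrays for these 3 genes, but a second Spry2 probe read the other way, 446 and 491 in GFP against 118 and 419 in LT7, with 552 and 511 in ST7. Spry4 was near the detection limit, with 18.3 and 27.5 in GFP and neither array measured in LT7 or ST7. Spred2 read 69.5 and 52.7 in GFP and 54.4 and 70.1 in LT7, and Spred1 read 27.4 and 22.1 in GFP and 26.5 and 56.4 in LT7. Both Spred genes were at background in ST7, and Spred3 was measured on 1 GFP array alone.

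Of the EGF ligands, 4 were measured on both GFP arrays. Epiregulin (Ereg) and heparin-binding EGF-like growth factor (Hbegf) both bind EGFR and ErbB4. Ereg read 1716 and 2309.6 in GFP cells, 971 and 841 in LT7 cells and 2.91 and 3.14 on the arrays labelled ST7. Hbegf read 1588 and 1516 in GFP cells, 661 and 1349.8 in LT7 cells and 11.46 and 3.21 on the arrays labelled ST7. Neither was measured on the arrays labelled ST7. Egf itself read 63.5 and 31.9 in GFP cells, 61.9 and 34.8 in LT7, and was at background in ST7. Epigen (Epgn) read 28.3 and 23.9 in GFP cells, 33.4 and 16.8 in LT7 cells and 11.7 and 21.4 in ST7 cells, with 1 array measured in each of the last groups. Betacellulin (Btc) was measured on 1 array each of GFP and LT7.

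Of the ErbB receptors, Egfr and Erbb2 were measured in GFP and LT7. Egfr, the receptor of EGF, read 576 and 358 in GFP cells, 381 and 449.5 in LT7 cells and 2.85 and 3.26 in ST7 cells at its first probe. Its second probe was measured on 1 array in ST7, at 11.1 and 16.3. Erbb2, the partner receptor that binds no ligand of its own, read 1022 and 726 in GFP cells, 1334 and 987 in LT7 cells and 20.4 and 19.4 in ST7 cells. On the stretch shown above, Erbb2 probe 2 was measured in GFP, at 37.2 and 29.8, whereas Erbb3 probe 3 and Erbb4 probe 4 were not.

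Erbb4, a neuregulin receptor, read higher in ST7 than in either other group, but at 1 of its 4 probes. Probe 1, designed on the predicted transcript XM_136682, read 1188 and 981 in GFP cells, 377 and 1286 in LT7 cells and 9777 and 11179.7 in ST7 cells. Probes 2 to 4, designed on NM_010154, read 2.71 to 5.25 on all 6 arrays and were never measured, probe 3 among them, which shares 22 bases with probe 1. What transcript probe 1 reports was not tested.

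Erbb3, a receptor with little kinase activity of its own, also differed by probe. Probe 1, designed on XM_972868, read 103 and 81.1 in GFP cells, 49.7 and 35.9 in LT7 cells and 2.95 and 3.23 in ST7 cells. Probe 2, designed on NM_010153, read 2.91 and 3.12 in GFP cells, 20.2 and 4.72 in LT7 cells and 30.3 and 28.2 in ST7 cells. It was measured in the last alone. The probes therefore run opposite ways, and no direction is given for Erbb3 in ST7.

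**Figure D3:**
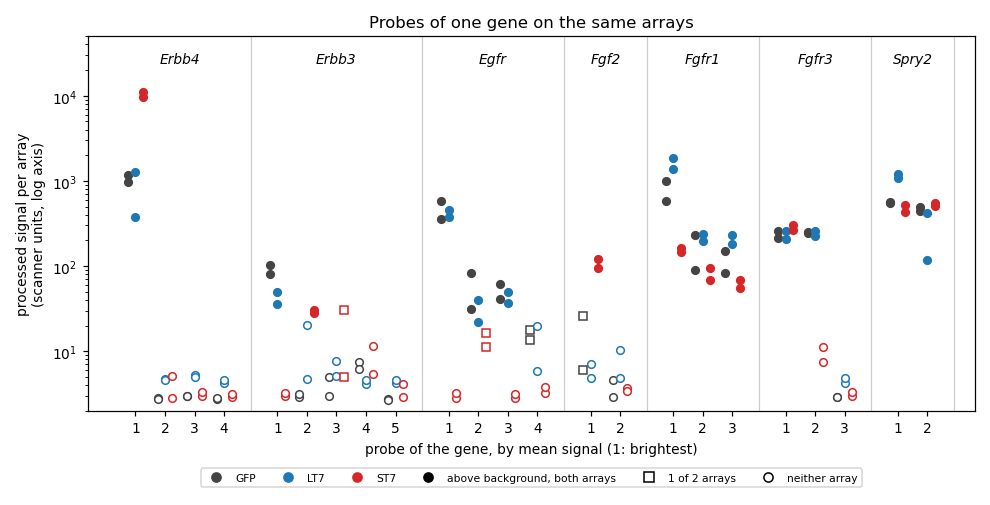
Processed signal on each array (vertical axis, scanner units, log scale) for every probe of 7 members, ordered by mean signal within the gene, with GFP, LT7 and ST7 from left to right at each probe. Filled circles mark probes measured on both arrays of the group, open squares on 1 and open circles on neither. Erbb4 has signal at 1 of 4 probes, Erbb3 probes 1 and 2 run opposite ways, and the first 2 Fgfr3 probes part only on the arrays labelled ST7, while the 3 Fgfr1 probes run alike.

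The comparison of LT7 with GFP asks what differs in the long SIRT7 cells. In it, Fgf10, Fgf7, Ereg and, at its first probe alone, Erbb3 read lower. Spry1, Spry3, Fgfr1 and, at its first probe alone, Spry2 read higher. These changes were about 1 on the log2 scale, but no member passed the test. With the 75th percentile subtracted from each array, limma called 0 of 47 members at an adjusted p under 0.05, against 0.182% of all genes (0.0499% higher, 0.132% lower). At an unadjusted p under 0.05 there were 16 of 47 members (11 higher, 5 lower), beside 27.4% of all genes at that threshold (23% higher, 4.35% lower). Of those 16, 7 were at background on all GFP and LT7 arrays. The background itself differed, and the 12 members measured on no array read 2.71 to 7.53 in GFP and 4.04 to 5.36 in LT7, with medians of 2.84 and 4.65. The median log2 change of the 12 members never measured was 0.78, and that of the 19038 genes never measured was 0.75.

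The 22 members measured on both arrays of both groups had a median log2 change of 0.10, with 12 of them higher, against 0.03 for the 21018 genes so measured. Fgf10 had the smallest p of the members, with a log2 change of -1.37 ± 0.19 (SE, n = 2 arrays per group, adjusted p = 0.102 in limma). Ereg changed by -1.04 ± 0.28 and Erbb3 by -1.01 ± 0.22, each with the same adjusted p in limma of 0.102. Spry1 changed by 1.30 ± 0.20, Fgfr1 by 1.16 ± 0.28 and Spry2 by 1.15 ± 0.22, again each with an adjusted p of 0.102 in limma. None of these 6 passed the threshold over all probes. On the spike-in scale, where LT7 replicate 1 stood apart, all 31 members described had a negative change, those of Spry1, Spry2, Spry3 and Fgfr1 included.

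Other probes of these genes bore on them differently. The 3 Fgfr1 probes changed by 0.69 to 1.16, and the second Ereg probe read 53.7 and 59.6 in GFP against 21.0 and 18.4 in LT7, where it was not well above background. The second Spry2 probe had a change of -0.97 ± 0.64, opposite in sign to the first. Erbb3 was measured in GFP and LT7 at its first probe alone, designed on a predicted transcript. Its second probe read 2.91 and 3.12 in GFP against 20.2 and 4.72 in LT7, measured on none of these arrays. Dusp4 and Fgf11 had estimates as large with wider errors, Dusp4 at -1.70 ± 1.05 (limma adjusted p = 0.392) and Fgf11 at 1.17 ± 0.66 (limma adjusted p = 0.348). Spry3 had a change of 0.90 ± 0.30 (limma adjusted p = 0.129) and Fgf7 one of -0.77 ± 0.34 (limma adjusted p = 0.228). With normexp background correction 3 members passed, namely Fgf10, lower, and Spry1 and Spry2, higher (limma adjusted p = 0.0106, 0.0133 and 0.035). By the fold rule of the study, at least 0.8 on the log2 scale in each replicate and over 1 in their mean, 7 members passed, against 6.22% of all genes (3.1% higher, 3.13% lower). These were Fgfr1, Spry1 and Spry2, higher, and Dusp4, Erbb3, Ereg and Fgf10, lower.

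**Figure D4:**
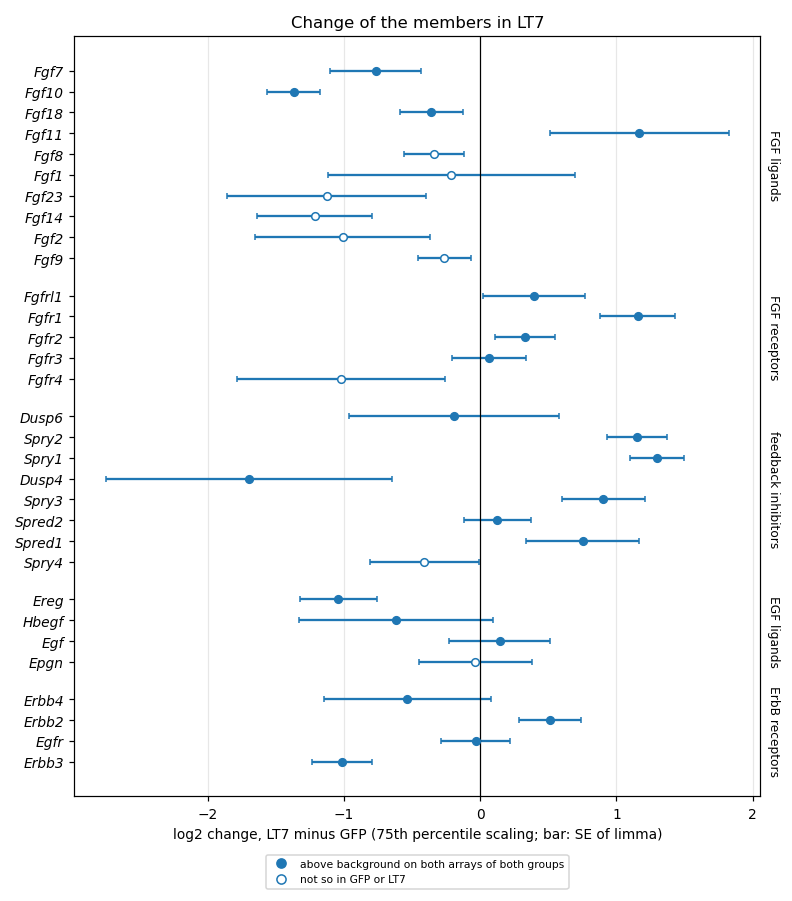
Log2 change of LT7 against GFP after 75th percentile scaling (horizontal axis) for the 31 members measured on both arrays of at least 1 group, with the SE from limma as bars. Open circles mark members not measured on both arrays of GFP and of LT7. No member passed the adjusted threshold. Spry1, Fgfr1, Spry2 and Spry3 lie between 0.90 and 1.30, and Fgf10 lies at -1.37.

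The comparison of ST7 with GFP asks what differs in the cells labelled as small SIRT7 cells. Here 14 members held their direction under all 6 ways of scaling the arrays while measured in the group where they were higher. Erbb4, Fgf2, Fgf9, Fgf8, Fgfr3 and Fgf11 read higher on the arrays labelled ST7, which are 6 of 47 members (12.8%) against 8.11% of all genes. Dusp6, Fgf7, Fgf10, Ereg, Hbegf, Fgfrl1, Egfr and Erbb2 read lower, which are 8 members (17.0%) against 18% of all genes. Both shares are near the background and are no result about the members as a group. Each gene counts here through its brightest probe, and the other probes of Erbb4, Fgf2 and Fgfr3 were not measured in ST7.

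After 75th percentile scaling limma called 41 of the 47 members, 33 higher and 8 lower, where it called 91.4% of all genes (72.3% higher, 19.1% lower). Of these 41, 12 were at background on all GFP and ST7 arrays, and the split of calls moved with the scaling, to 6 higher and 20 lower without any and 0 higher and 9 lower on spike-in RNAs. Without scaling, 43.5% of all genes were called, 4.44% higher and 39.1% lower. Fewer cells with a transcript and less RNA per cell cannot be told apart in these arrays, and the part of the dim ST7 arrays in each of these calls was not tested.

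Of the 8 lower members, Dusp6 was at least 42.9-fold lower relative to the 75th percentile (adjusted p = 0.00053 in limma) and at least 905-fold lower on the signals as deposited. These bounds set the GFP mean against the lowest signal that counted as measured on each ST7 array, or the probe's own signal where that was higher. On the same 2 scales Fgf7 was at least 14.8-fold and at least 313-fold lower (limma adjusted p = 4.02e-05), and Fgf10 at least 3.19-fold and at least 67.4-fold lower (limma adjusted p = 1.83e-05). Ereg was at least 6.99-fold and at least 147-fold lower, and Hbegf at least 5.45-fold and at least 115-fold lower. Fgfrl1 was at least 3.94-fold and at least 83.2-fold lower. The FGF ligands, EGF ligands and the kinase-free receptor thus had bounds above 3-fold on either scale.

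The 2 ErbB receptors among the 8 had smaller bounds. Egfr was at least 1.59-fold lower relative to the percentile and at least 33.6-fold lower on the deposited signals (limma adjusted p = 0.000165). Erbb2, which was measured in ST7, was 2.05-fold lower relative to the percentile (limma adjusted p = 0.00701) and 43.3-fold lower on the deposited signals. With the probes of a gene averaged after scaling, the sign of both turned, to 0.56 for Egfr and 0.31 for Erbb2. On the deposited signals the other probes measured on both GFP arrays were lower in ST7 too. Their means went from 57.7 to 13.7 and from 51.0 to 2.96 for Egfr, and from 33.5 to 5.38 for Erbb2. None of them was measured on both ST7 arrays, so the averaged sign gives no usable direction.

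Of the 6 higher members, Erbb4, at the single probe described above, was 204-fold higher relative to the 75th percentile (limma adjusted p = 9.81e-05) and 9.68-fold higher on the deposited signals, where its log2 change was 3.28 ± 0.61 (limma adjusted p = 0.00923). Fgf2 changed by 7.49 ± 0.64 after scaling and by 3.09 without it on the log2 scale (limma adjusted p = 0.000133 and 0.0225). Only 1 of its 2 GFP arrays was measured, so no fold is given, and the scaled change was 8.42 without GFP replicate 1 and 6.56 without GFP replicate 2. Fgf9 was at least 97.6-fold and at least 4.62-fold higher (limma adjusted p = 1.68e-05 and 0.000152). Fgf8 was 56.0-fold and 2.65-fold higher (limma adjusted p = 1.68e-05 and 0.00214).

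Erbb4, Fgf2, Fgf8 and Fgf9 were thus the measured members whose deposited signal itself was higher in ST7 beyond the spread of the arrays. The other 2 members called higher without scaling, Fgf13 and Fgf20, were at background on all 6 arrays. For Fgfr3 and Fgf11 the deposited signals were 1.21-fold and 1.06-fold higher and did not pass the test (limma adjusted p = 0.408 and 0.934). Their changes after scaling, 4.67 ± 0.27 and 4.48 ± 0.66, were about the size of the shift that scaling added, and the second Fgfr3 probe was not measured in ST7. On the spike-in scale none of the 6 passed the test, and the SE was 1.80 for each. There Fgf9 changed by 3.21 on the log2 scale, beside 3.02 ± 0.20 without scaling. LT7 replicate 1, whose spike-in RNAs stood apart, is in the fit that gave this SE, so the lost calls do not show smaller changes.

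**Figure D5:**
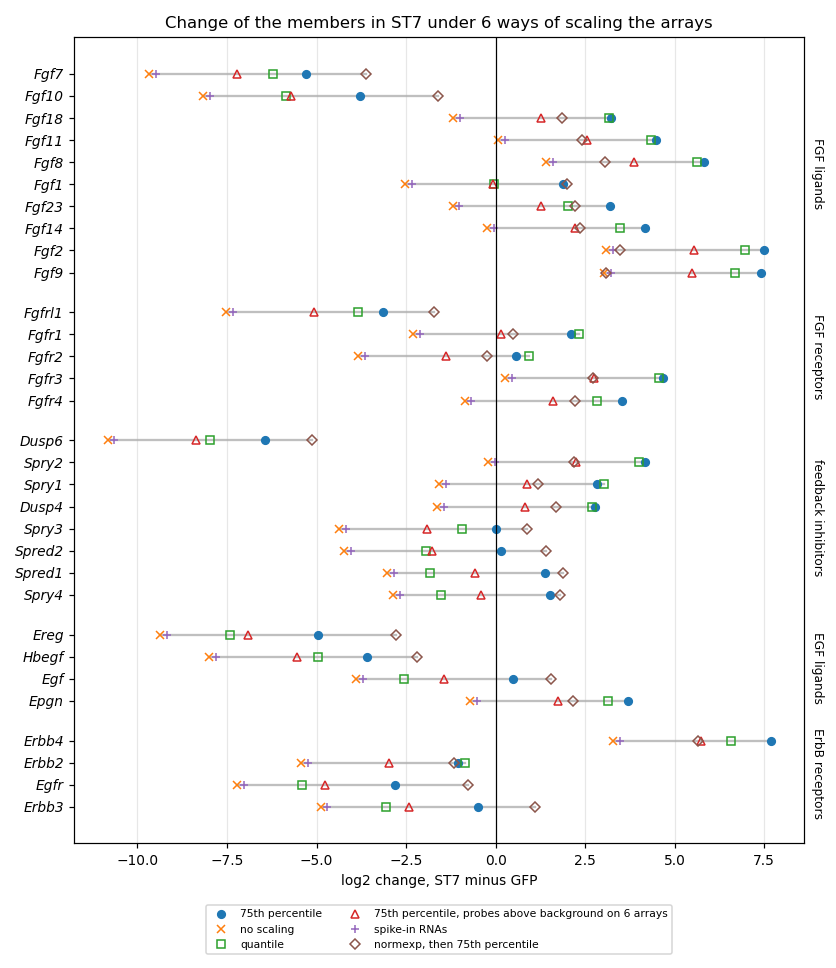
Log2 change of ST7 against GFP (horizontal axis) for the 31 members measured on both arrays of at least 1 group, under 6 ways of scaling the arrays (symbols), with a grey line from the lowest to the highest. Each member is shown through its brightest probe. Erbb4, Fgf2, Fgf9, Fgf8, Fgfr3 and Fgf11 lie above 0 under all 6, while most feedback inhibitors cross 0.

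The remaining members changed sign with the scaling or were not measured where it mattered. Spry2 was one of the few whose deposited signal was nearly level, with a log2 change of -0.22 without scaling (limma adjusted p = 0.451) and 4.18 after it. Fgfr1 changed by -2.30 without scaling and by 2.10 after it, and each value passed the test on its own scale. Fgfr2 changed by -3.84 and 0.56, and Spry1 by -1.58 and 2.82. For Egf, Spry3, Spred1, Spred2 and Spry4 the signal was lost in ST7 but had been too low in GFP to give a bound after scaling.

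ST7 against LT7, both labelled as SIRT7 lines, gave 41 of 47 members called (32 higher, 9 lower), against 91.3% of all genes (72.3% higher, 19% lower). Without scaling the split was 4 higher and 26 lower, and on spike-in RNAs 3 higher and 5 lower. This comparison shares the ST7 arrays with the one above. Erbb4 changed by 8.21 ± 0.61 and Dusp6 by -6.24 ± 0.77 on the log2 scale (limma adjusted p = 7.63e-05 and 0.000599). Spry1 and Fgfr1, which read highest in LT7, changed by 1.52 ± 0.20 and 0.95 ± 0.28 after scaling but by -2.78 and -3.35 without it.

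The genes around the members in the pathway were read from a list of 58 genes on the array. In GFP 50 of them were measured on both arrays (86.2%), in LT7 46 (79.3%) and in ST7 16 (27.6%). The shares over all genes were 50.4%, 42.2% and 23.0%. In LT7 limma called 0 of 58 against GFP, beside 0.182% of all genes. An unadjusted p under 0.05 was found for 9 of 58, beside 27.4% of all genes. The 4 largest changes among those measured in both groups were in Il17rd, a feedback inhibitor of FGF signalling also called Sef, in Dusp9, in Etv4 and in Ier2. Il17rd read 623 and 492 in GFP against 1708 and 1294 in LT7 (log2 change 1.52 ± 0.47, limma adjusted p = 0.105). Dusp9, a phosphatase of ERK, read 332 and 291 in GFP against 140.2 and 149.9 in LT7 (limma adjusted p = 0.102), but a second probe of Dusp9 changed by 0.52 ± 0.32, and a second probe of Il17rd by -0.14 ± 0.22. The ETS factor Etv4 changed by 0.89 ± 0.58 and the immediate early gene Ier2 by -0.83 ± 0.29 (limma adjusted p = 0.418 and 0.142).

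Transcripts known to follow ERK activity, 11 genes such as Egr1, Myc and Ccnd1, were measured in GFP and in LT7 without exception. In LT7 9 of the 11 read lower and 2 higher, while 11382 of the 21018 genes measured in both groups read higher. The median log2 change was -0.43, beside 0.04 for the pathway list and 0.03 for all genes measured in both groups. Limma called 0 of the 11, and ERK activity itself was not tested. In ST7 0 of the 11 were measured on both arrays, where 23.0% of all genes were. On neither ST7 array were 9 of the 11 measured (81.8%), against 50.9% of all genes measured in GFP.

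In ST7 against GFP limma called 48 of the 58 pathway genes, 23 higher and 25 lower, where it called 91.4% of all genes (72.3% higher, 19.1% lower). Without scaling the split was 1 higher, Plcg1, and 47 lower, and on spike-in RNAs 0 higher and 31 lower. The calls named higher below thus rest on the scaling, though Plcg1 was also called without any. On spike-in RNAs Plcg1 was not called either. The 9 ERK-following transcripts called were Ccnd1, Egr1, Etv1, Fosl1, Ier2, Ier3, Myc and Phlda1, lower, and Etv5, higher. Egr1 read 13982 and 12222 in GFP and 6.25 and 3.13 in ST7, at least 45.9-fold lower after scaling (limma adjusted p = 7.38e-05). Of the adaptors and activators of Ras, Frs2, Ptpn11, Shc1 and Sos2 were called lower and Frs3, Gab2, Grb2 and Plcg1 higher. Grb2, the adaptor that brings Sos to active receptors, read 4673 and 4551 in GFP and 5651 and 5975 in ST7, and it and Plcg1 were the 2 pathway genes that read higher under all 6 scalings.

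Genes of the kinase cascade called lower included Hras1, Nras, Map2k2 and Mapk3, and those called higher included Araf, Braf, Map2k1 and Ksr1. The deposited signals of these last 4 were lower in ST7 than in GFP, with Araf at a mean of 3309.6 in GFP and 282 in ST7, and Ksr1 was not measured in ST7. Of the brakes, Cblb, Il17rd, Lrig1 and Lrig3 were called lower and Cbl, Dusp5, Dusp7, Dusp9 and Errfi1 higher. On the deposited signals Dusp7, Dusp9 and Errfi1 were lower in ST7 than in GFP, with Errfi1 at a mean of 4667 in GFP and 1575 in ST7, and Cbl and Dusp5 were not measured in ST7. The other calls were Adam17, Adam9 and Nrg1, lower, and Adam12, Fgfbp1, Flrt1, Flrt3, Kl, Klb, Nrg3 and Nrg4, higher. Of all 23 higher calls 5 were at background in both groups. There were 25 pathway genes that were measured in GFP and read lower under all 6 scalings, out of 50 measured in GFP. Over all genes these were 9035 of 25250, and over the members 8 of 29.

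The base composition of the probes was set beside their detection. The 15 member probes measured on both arrays in GFP and in ST7 had a median GC content of 45%, and the 21 measured in GFP and on neither array in ST7 had 43.3%. Over all probes the medians were 45% for 12831 and 41.7% for 17031. The members thus lay close to the probes of the whole array in this respect.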

How the data were processed

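RNA from 6 cultures was labelled with Cy3 and hybridised to 1-colour Agilent arrays. The deposited intensities are processed signals that the authors took from the scans with Agilent Feature Extraction 10.5.1.1, background-subtracted and not scaled between arrays. The deposited table of log2 values holds the authors' own percentile-shifted signals, and it served as an alternative. After control and outlier spots had been dropped and repeat spots averaged, log2 signals were centred on the 75th percentile of their own array. Differences were tested with limma 3.58.1 in R 4.3.3 in 1 fit of the 6 arrays. The p-values were adjusted by Benjamini-Hochberg across 61307 probes, at a threshold of 0.05. The procedure was tested on simulated data. A gene was read through its probe of highest mean signal. Values on every array were given for members measured on both arrays of at least 1 group, and other probes where they differed in detection or sign. Pathway genes were named where called or, with fewer than 4 calls, as the 4 largest measured changes. Some called pathway genes are not reported here. The members and lists were chosen with earlier results of these data known. A probe measured on no array of a group gave a bound. The number of arrays limits the precision. Probe sequences are those of the array design, and all 47 symbols were found in the RefSeq gene table. Other scalings, background correction, a detection filter, probe averaging, each array left out and a replicate block were tried.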

Additional observations from a re-analysis of the deposited data

How the results depend on the processing

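In LT7 against GFP the count of members called was 0 in every limma fit tried except normexp background correction, with 3, and the fold rule of the study gave 7. The pathway list gave 1 and 3 under the same settings. Leaving out each array in turn gave 0 to 0 members and 0 to 0 pathway genes. Over all probes, limma called 108 in this comparison (16699 at an unadjusted p under 0.05), 0 without either GFP array, and 363 and 697 without LT7 replicate 1 and 2. In ST7 against GFP the count of 41 members became 26 without scaling, 9 on spike-in RNAs and 26 with probes measured on 2 or more arrays, where fewer members were tested. Leaving out each array gave 38 to 41. In ST7 against LT7 the count of 41 became 8 on spike-in RNAs and 26 with the filter, and leaving out each array gave 38 to 42. Of the pathway list, 48 became 31 on spike-in RNAs, and leaving out each array gave 43 to 49. With a replicate block the members called were 0, 41 and 40 in the 3 comparisons, and the pathway genes 0 and 47. The replicate numbers did not pair the samples (r = 0.0777 for GFP and LT7, 0.0353 for GFP and ST7 and -0.0235 for LT7 and ST7). The spike-in RNAs were bright on LT7 replicate 1 alone, and with that scaling all 31 members described had a negative change in LT7. That array shares the fit, so it also enters the SE of the ST7 comparisons on the spike-in scale.

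For these 31 members, 496 values were computed in each comparison with GFP. In ST7 41 of them had the opposite sign to the value after 75th percentile scaling while at least 1 of both values passed the test, and in LT7 0 did. Egf, Erbb3, Fgfr2, Spred2 and Spry3 were not called after that scaling. The 41 log2 changes were as follows. Without scaling these were -1.63 for Dusp4, -3.90 for Egf, -0.71 for Epgn, -0.24 for Fgf14, -1.18 for Fgf18, -1.20 for Fgf23, -2.30 for Fgfr1, -3.84 for Fgfr2, -0.87 for Fgfr4, -3.03 for Spred1, -4.24 for Spred2, -1.58 for Spry1, -0.22 for Spry2, -4.38 for Spry3 and -2.87 for Spry4. On spike-in RNAs they were -1.44 for Dusp4, -0.52 for Epgn, -0.051 for Fgf14, -0.99 for Fgf18, -1.01 for Fgf23, -2.11 for Fgfr1, -0.68 for Fgfr4, -2.84 for Spred1, -1.39 for Spry1, -0.027 for Spry2 and -2.68 for Spry4. With quantile normalization they were -2.55 for Egf, -1.82 for Spred1, -1.94 for Spred2, -0.93 for Spry3 and -1.53 for Spry4. With the percentile over probes measured on all arrays they were -1.44 for Egf, -1.38 for Fgfr2, -0.57 for Spred1, -1.78 for Spred2, -1.92 for Spry3 and -0.42 for Spry4. With normexp Erbb3 had 1.09, and with the mean of all probes of a gene Egfr had 0.56, Erbb2 0.31 and Erbb3 4.52. The cause was not tested. Over all probes the median of ST7 against GFP on the log2 scale was 3.72 after 75th percentile scaling, -0.68 without scaling, 0.37 with quantile normalization, 1.78 with the percentile over measured probes, -0.49 on spike-in RNAs and 2.23 with normexp, so signs are relative to these shifts. In LT7 it was 0.17, and -2.05 on spike-in RNAs. Members not above background have no usable direction on any scale.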
